A study of Mus musculus with 24 samples.

Results

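The liver was compared between mice with an NZB and mice with a C57BL/6 nuclear genome, both on C57 mitochondrial DNA (mtDNA). Genotypes are written as nuclear genome, colon, mtDNA. NZB:C57 mice are conplastic: repeated backcrossing, for 10 generations, put the NZB nucleus on the mtDNA of the C57 line. In BL/6J:C57 mice, the parental line, nucleus and mtDNA come from the same strain. Males of 10 weeks were used, 12 per genotype, from mice bought from Harlan Laboratories, and each library is a pool of equal parts of liver RNA from 4 animals. The comparison takes 6 of the 24 libraries of the series, 3 of NZB:C57 and 3 of BL/6J:C57 liver, chosen by their labels, and was made across all genes. The nuclear genomes differ along their whole length, so a difference cannot be assigned to a locus here. BL/6J libraries are titled mix and NZB libraries rep, and whether these titles mark a difference in handling cannot be told apart from the nucleus. In each mtDNA background the contrast has 1 conplastic and 1 parental line, which carry different breeding histories. The same nuclear contrast in 6 other livers, NZB:NZB against BL/6J:NZB, shares no library with it and is given beside it.

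The liver makes most plasma proteins, converts cholesterol to bile acids, and clears drugs, steroids and bilirubin with cytochromes P450 and conjugating enzymes. Many of these genes belong to clusters of near-identical copies that differ between mouse strains. In rodents, growth hormone is released in pulses in males and more evenly in females, and this pattern sets which of a large group of liver genes are male-biased or female-biased. NZB (New Zealand Black) mice are an inbred strain known for autoimmune haemolytic anaemia, and C57BL/6 mice are the strain of the reference genome.

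Genes known to differ between mouse strains were read first. Values are normalised reads in libraries 1, 2 and 3 of a group, and where sets of 3 are joined by against, the BL/6J nucleus comes first. Ifi202b, an interferon-inducible gene of the Ifi200 cluster (chromosome 1, 173962568 to 173982744), was at 0 in the 3 BL/6J:C57 livers and at 8.31, 4.46 and 5.27 normalised reads in the NZB:C57 livers, at least 109-fold higher (adjusted p = 1.04e-07, limma). H2-Ea-ps, the MHC class II E alpha chain gene that C57BL/6 mice do not express, was at 0 in BL/6J:C57 and at 8.15, 7.18 and 3.13 in NZB:C57, at least 112-fold higher (adjusted p = 1.48e-06, limma). Such bounds set a group with no reads at 3 reads over the group. The complement gene Hc, which encodes C5, stood at 1518, 2016 and 1976 in BL/6J:C57 and at 579, 619 and 757 in NZB:C57 livers (log2 fold change -1.49 ± 0.13 SE, limma adjusted p = 1.46e-06). The Y-linked genes Uty, Ddx3y, Eif2s3y and Kdm5d were present in all 6 libraries and 0 of the 4 passed the threshold, with Uty at 21.8, 19.7 and 22 against 21, 20.6 and 24.

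Markers of other cell types set 2 libraries apart before any result. Of 12 tested heart muscle markers, 12 were called higher in NZB:C57, with a median log2 fold change of 2.12, or 2.80 with genes at 0 in a group set at their bound. Passing the filter needs a value of at least 1 in 3 or more of the 12 livers. These markers did so only through NZB livers where they were high, so the count of 12 of 12 is no independent evidence. In a fit of only the 6 libraries compared, they were too low to be tested. Myh6, the alpha-myosin heavy chain of the heart, was at 0, 0.0558 and 0.0398 in BL/6J:C57 livers and at 0, 46.6 and 35.2 in NZB:C57 livers. The summed level of these markers was 0.529, 0.446 and 0.438 in BL/6J:C57, 0.549, 175 and 138 in NZB:C57, 0.933, 0.945 and 1.22 in BL/6J:NZB and 192, 103 and 56.2 in NZB:NZB livers. NZB:C57 livers 2 and 3 and the 3 NZB:NZB livers thus held heart transcripts, while NZB:C57 liver 1 lay in the range of the BL/6J livers, with Myh6, Actc1 and Nppa at 0. Without BL/6J:C57 liver 1 the number of cardiac markers called was 1, without BL/6J:C57 liver 2 it was 4, and without liver 3 it was 8. It was 0 without NZB:C57 liver 2, 0 without liver 3 and 0 without both. The part of these transcripts in other results was not tested, and counts without NZB:C57 livers 2 and 3, chosen after seeing the data, stand beside the main counts below.

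Other marker lists are given as counts called higher and lower of those tested, where 13.1% of all genes tested were called higher and 14.8% lower. Hepatocyte markers gave 6 and 3 of 18, cholangiocyte markers 1 and 2 of 6, and endothelial markers 0 and 1 of 19. Stellate cell and fibroblast markers gave 3 and 1 of 17, and macrophage and Kupffer cell markers 2 and 6 of 19. Among the latter, C1qa, a chain of complement C1q made by macrophages, was at 49.9, 48.9 and 29.5 in BL/6J:C57 and 22, 21.9 and 19.4 in NZB:C57, while Cd5l, a secreted macrophage protein, was at 49.9, 64 and 57.2 against 194, 167 and 124. Both differences passed the threshold (adjusted p = 0.00113 and 2.48e-05, limma) and went in opposite directions. Neutrophil markers gave 0 and 2 of 3, T and NK cell markers 1 and 0 of 3, B and plasma cell markers 3 and 1 of 6, red cell markers 0 and 3 of 6, and pancreas and gut markers 2 and 0 of 3. Most of these counts are small and moved when 1 library was left out. Lower neutrophil calls ran from 1 to 3 and lower endothelial calls from 1 to 3, with 3 of each without BL/6J:C57 liver 3. Higher stellate cell and fibroblast calls ran from 2 to 5, with 5 without NZB:C57 liver 3. Cd3e is a chain of the T cell receptor complex. It was at 0.176, 0.223 and 0.159 in BL/6J:C57 and at 5.02, 3.3 and 5.27 in NZB:C57 (adjusted p = 6.40e-07, limma). It was the T and NK cell marker called, and without any 1 NZB:C57 liver it was too low to be tested, so that 0 were called higher and the median of the list turned from 0.21 to between -0.25 and -0.09. Ighm, the IgM heavy chain, was at 7.49, 7.36 and 5.69 against 36.1, 32.2 and 29.8 (adjusted p = 1.29e-07, limma). In whole tissue, fewer cells of a type and less RNA per cell cannot be told apart.

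Of 13159 genes tested, 3670 passed an adjusted p of 0.05 (27.9%), of which 1729 were higher (13.1%) and 1941 lower (14.8%) in NZB:C57. The test was limma on log2(value + 1), fitted to the 12 liver libraries of the 4 genotypes. The 3 NZB:C57 libraries lay wholly above or below the 3 BL/6J:C57 libraries for 5041 genes (38.3%), among them 3471 of the 3670 called. The median log2 fold change was -0.03 over all genes tested and the median size was 0.66 over called genes. A log2 fold change beyond 1 was reached by 1032 called genes, 601 of them higher, and one beyond 2 by 314, 199 of them higher. With NZB:C57 livers 2 and 3 left out, so that liver 1 was the lone sample of its group and was assumed to vary like the other groups, 1585 of 13059 genes were called (12.1%). Depth ran from 15745242 to 34974268 recovered reads in BL/6J:C57 and from 7294525 to 17575026 in NZB:C57 livers, where livers 2 and 3 were the shallowest.

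**Figure D1:**
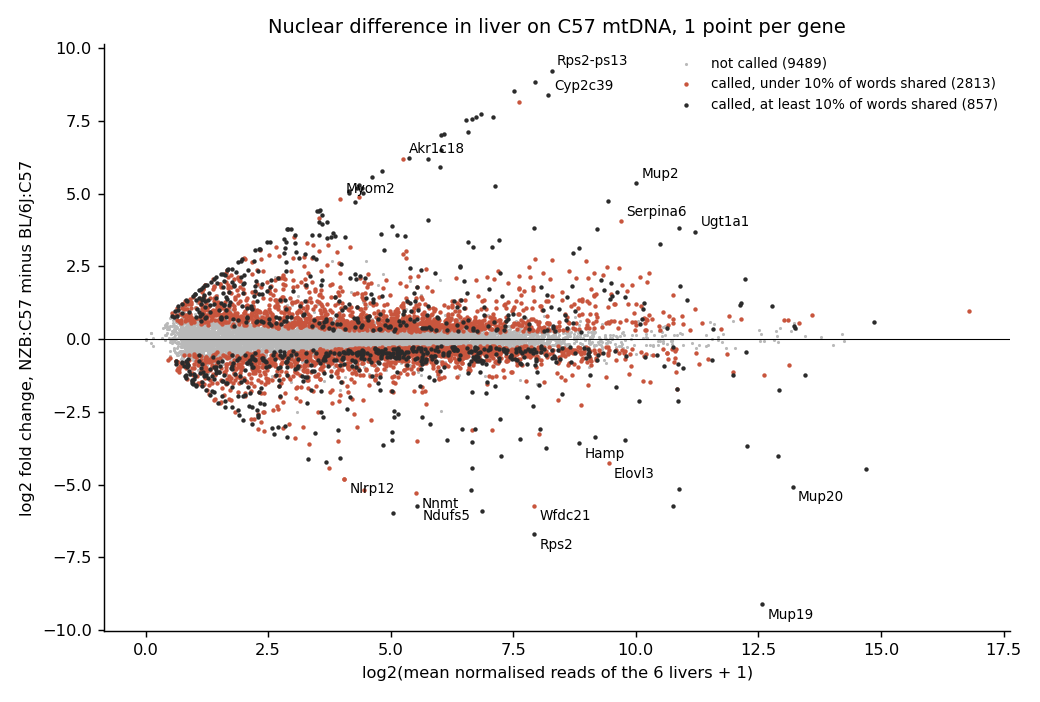
Log2 fold change (NZB:C57 minus BL/6J:C57 liver) against the mean level of the 6 livers as log2(normalised reads + 1), 1 point per tested gene; red and black points were called by limma, black ones share at least 10% of their 31-base sequence words with another gene. Among the 64 called genes beyond a log2 fold change of 4 in size, 51 are black.

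Genes with little sequence in common with others and the largest differences had separate functions. Those lower in NZB:C57 included Wfdc21, which encodes a small secreted protein with a WAP domain (chromosome 11, 83746940 to 83752642), with 476, 511 and 434 normalised reads in BL/6J:C57 and 3.53, 5.43 and 23.1 in NZB:C57 (log2 fold change -5.74 ± 0.44 SE, limma adjusted p = 3.42e-07). Nnmt, the enzyme that methylates nicotinamide (chromosome 9, 48591877 to 48605153), was at 76.7, 119 and 64 and then 0, 0 and 8.73 (log2 fold change -5.31 ± 0.64 SE, limma adjusted p = 3.19e-05). For both genes the groups did not overlap, which the rule for naming them required, and NZB:C57 liver 3 was the highest of its group. The inflammasome-related gene Nlrp12 (chromosome 7, 3218784 to 3249740) was at 34.9, 28.9 and 29.3 in BL/6J:C57 and had 3 reads over the NZB:C57 group, a pooled ratio of 243 with a 95% exact counting interval of 82.9 to 1180.0. Elovl3, an elongase of very long chain fatty acids, was at 1818, 1221 and 934 against 71, 78.4 and 48.9 (log2 fold change -4.28 ± 0.27 SE, limma adjusted p = 4.65e-08). The interferon-inducible GTPase gene Gvin1 was at 45.5, 61.5 and 85.4 in BL/6J:C57 and at 0 in the 3 NZB:C57 livers, at least 513-fold lower, but 97.7% of its words are shared, so its own level is uncertain.

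Among genes higher in NZB:C57, Cyp2c39, a cytochrome P450 that hydroxylates retinoic acid (chromosome 19, 39510862 to 39568529), was at 0.705, 0.781 and 0.876 in BL/6J:C57 and 621, 566 and 588 in NZB:C57, 752-fold by the ratio of means (log2 fold change 8.37 ± 0.13 SE, limma adjusted p = 9.79e-15). Of its words, 19.4% are shared, foremost with Cyp2c38, which was itself at 25.5, 21.7 and 24.5 against 175, 147 and 111 (adjusted p = 8.99e-09, limma). Akr1c18, the 20-alpha-hydroxysteroid dehydrogenase that inactivates progesterone (chromosome 13, 4132615 to 4150654), had 1 read over the BL/6J:C57 group and was at 85.6, 71.4 and 66.7 in NZB:C57 (log2 fold change 6.19 ± 0.15 SE, limma adjusted p = 1.62e-12). Myom2, a protein of the muscle M band (chromosome 8, 15057653 to 15133541), was at 0.0881, 0 and 0.119 against 26.2, 33 and 29 (log2 fold change 4.82 ± 0.16 SE, limma adjusted p = 5.16e-11), with a level in NZB:C57 liver 1, where Myh6 was at 0, like that in the other NZB:C57 livers. Cd1d2, a relative of the lipid antigen presenting molecule CD1d, was at 0 in BL/6J:C57 and at 44.3, 41.5 and 30.1 in NZB:C57, at least 701-fold higher (adjusted p = 7.99e-12, limma; 35.3% of words shared). Serpina6, corticosteroid-binding globulin (chromosome 12, 103646630 to 103657212), was at 95.4, 95.3 and 88.1 against 1596, 1576 and 1510.3 (log2 fold change 4.06 ± 0.09 SE, limma adjusted p = 8.88e-13). Cox6b2, an isoform of a cytochrome c oxidase subunit known from testis, was at 0.176, 0.502 and 0.199 against 10.7, 9.9 and 10.5 (adjusted p = 1.96e-09, limma).

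**Figure D2:**
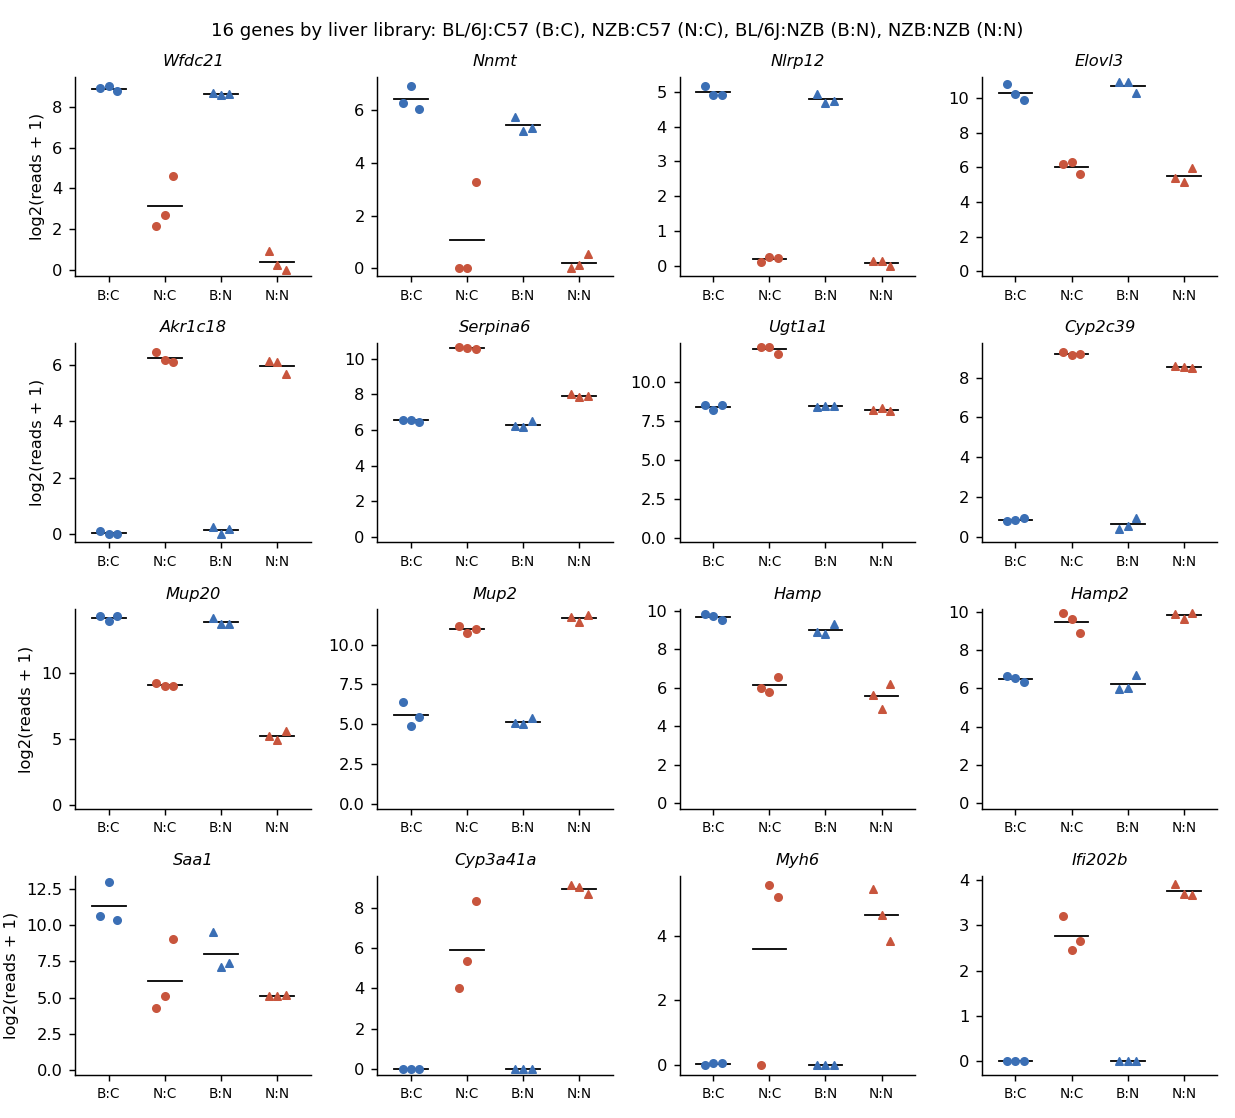
Levels of 16 genes in the 12 livers as log2(normalised reads + 1), 1 point per library with a bar at the group mean; blue is the BL/6J and red the NZB nucleus, circles are C57 and triangles NZB mtDNA. Myh6 is at 0 in NZB:C57 liver 1 and at 46.6 and 35.2 normalised reads in livers 2 and 3.

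The largest differences were mostly in genes with a near-identical copy. Among genes sharing at least 50% of their words, 41.1% were called and 6.98% passed a log2 fold change of 4, against 28.5% and 0.119% among genes sharing none. Of 307 pseudogenes tested, 105 were called higher and 39 lower, and 27 of the higher ones passed 4. Several such pseudogenes were at or near 0 in BL/6J:C57 while the functional gene was high, and the reverse held in NZB:C57. Stretches of the coding sequence are shown for 3 such pairs, since within the coding sequence of the reference a gene and its copy can be told apart only at the bases that differ. The transcripts are from GENCODE vM21 on GRCm38, written 5′ to 3′ along the transcript, with the bases that differ within a pair in capitals.

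Rps2: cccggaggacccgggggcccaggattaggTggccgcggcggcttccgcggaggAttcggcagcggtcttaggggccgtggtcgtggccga
Rps2-ps13: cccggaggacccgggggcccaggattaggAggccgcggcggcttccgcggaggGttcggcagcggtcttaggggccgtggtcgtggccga
Ndufs5: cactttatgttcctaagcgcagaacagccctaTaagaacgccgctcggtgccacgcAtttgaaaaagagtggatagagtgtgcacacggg
BC002163: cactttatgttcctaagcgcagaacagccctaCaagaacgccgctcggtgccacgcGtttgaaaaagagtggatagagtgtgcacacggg
Atp6v0c: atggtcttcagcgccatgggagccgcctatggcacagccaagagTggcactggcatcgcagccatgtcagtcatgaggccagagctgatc
Atp6v0c-ps2: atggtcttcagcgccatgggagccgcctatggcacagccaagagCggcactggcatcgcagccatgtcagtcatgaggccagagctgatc

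Rps2, a protein of the small ribosomal subunit (chromosome 17, 24718116 to 24721929), and its processed pseudogene Rps2-ps13 (chromosome X, 52898588 to 52899469) differ at 7 of 879 coding bases, 2 of them in the stretch shown (coding bases 31 to 120 of Rps2). Rps2 was at 517, 492 and 429 in BL/6J:C57 and 4.0, 3.88 and 2.96 in NZB:C57, and Rps2-ps13 at 0, 0.112 and 0 against 659, 647 and 555. Their sum was 479 ± 45.4 and 624 ± 57.3 (SD, n = 3), so the swap within the pair was far larger than the difference of the sum. Ndufs5, an accessory subunit of respiratory complex I (chromosome 4, 123712710 to 123718202), and BC002163 (chromosome 16, 42955631 to 42955949) differ at 2 of 318 coding bases, both in the stretch shown (bases 49 to 138). Ndufs5 went from 113, 86.7 and 71.1 to 0.627, 0.97 and 0.494 and BC002163 from 0 in all 3 to 58.4, 61.3 and 43.3, with sums of 90.5 ± 21.4 and 55 ± 9.87. Atp6v0c, a subunit of the vacuolar proton pump (chromosome 17, 24163866 to 24169702), differs from Atp6v0c-ps2 (chromosome 6, 37806086 to 37806550) at 1 of 465 coding bases, within bases 67 to 156 shown. Atp6v0c stood at 214, 189 and 153 against 18.6, 15.3 and 11.9, its copy at 0, 0.502 and 0.916 against 115, 128 and 141, and the sums at 186 ± 30.2 and 143 ± 9.45.

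The glycolytic gene Pgk1 and the retrocopy Pgk1-rs7 differ at 0 of 1250 aligned coding bases. Pgk1 was at 448, 462 and 510.3 in BL/6J:C57 and 54, 56.7 and 53.3 in NZB:C57, Pgk1-rs7 at 0 in all 3 and then at 391, 338 and 366, and their sum at 473 ± 32.9 and 419.6 ± 25.1. Rpl26 with Gm15772, chosen as its copy after the values were seen, and the tropomyosin gene Tpm3 with Tpm3-rs7 swapped in the same way, with sums of 229 and 272 for Rpl26 and of 85.1 and 113 for Tpm3. The glycolytic gene Eno1 and its copy Eno1b differed from these pairs: Eno1 had a mean of 563 in BL/6J:C57 and 152 in NZB:C57 and Eno1b of 0 and 133, so the gene stayed above its copy and the sum was lower, at 563 ± 64.5 against 285 ± 7.17 (SD, n = 3). The swaps of the other pairs stood in the livers on NZB mtDNA too. Single-gene values of such pairs are therefore uncertain. Swaps were not the rule for all copies: of 278 called genes whose closest copy was also called, 120 went opposite to it and 158 the same way. Of 51 with both past a log2 fold change of 2, 29 went opposite ways. A pair could be counted from each of its genes. In the whole table, 55 genes had values equal to another gene's in every library. Any of these paired with each other go the same way by construction, and they were not left out.

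**Figure D3:**
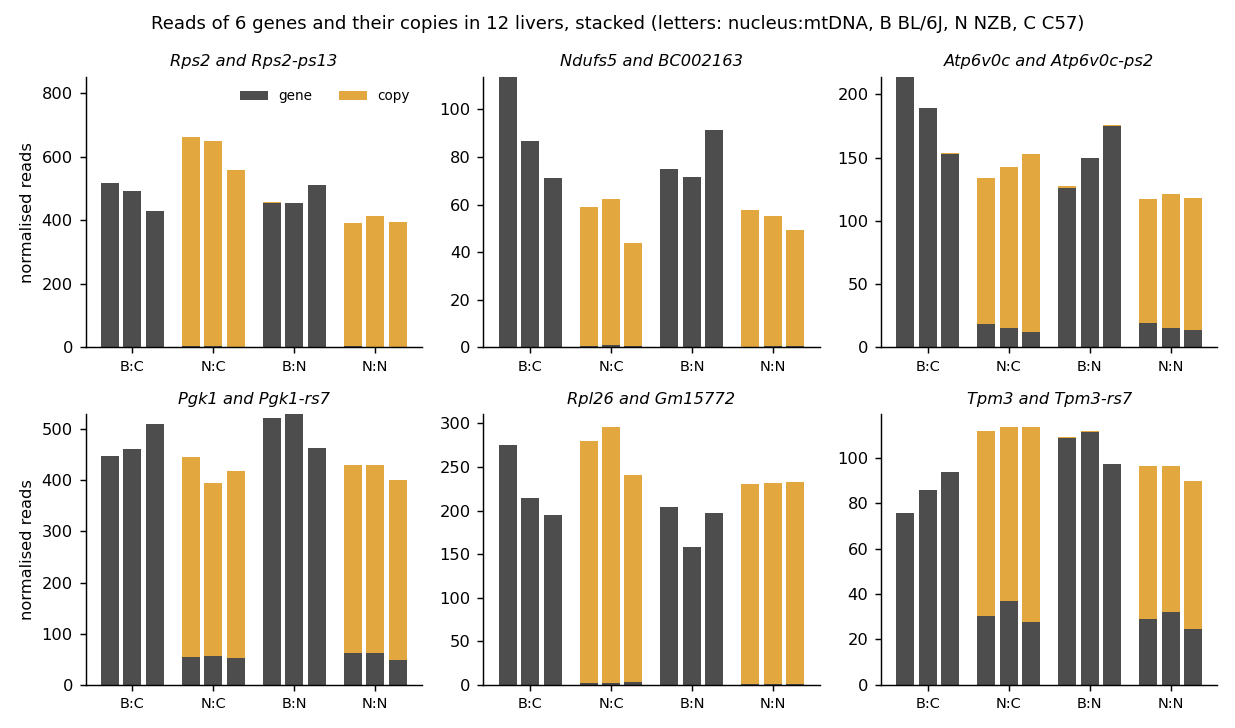
Normalised reads of 6 genes (grey) and their copies (yellow), stacked, 1 bar per liver library, by nucleus and mtDNA. Grey fills the BL/6J bars and yellow most of each NZB bar; for Pgk1 and Pgk1-rs7 the summed means are 473 in BL/6J:C57 and 419.6 in NZB:C57.

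Lists of genes by pathway are described by their counts and medians, beside 13.1% higher, 14.8% lower and a median of -0.03 over all genes tested. List counts of 0 to 2 could move by 1 gene when 1 library was left out, and larger moves of them are given. Without NZB:C57 livers 2 and 3 the NZB:C57 group had 1 library, and fewer genes were called over all genes tested. Counts from that fit are therefore not to be set beside 13.1% and 14.8%, and a fall in them is no result about a list. Male-biased liver genes were mostly lower in NZB:C57: of 28 tested, 20 were lower and 5 higher, with a median log2 fold change of -1.62, and 15 and 5 without NZB:C57 livers 2 and 3. Besides Elovl3, these included Cyp4a12b, a fatty acid omega-hydroxylase of male liver, at 624, 399 and 569 in BL/6J:C57 and 41.9, 46.4 and 27.7 in NZB:C57 (log2 fold change -3.75 ± 0.21 SE, limma adjusted p = 1.71e-08). The major urinary proteins, pheromone carriers made in male liver, overlap with this list and were lower for 13 of 19 and higher for 3. Their summed level, which is less open to the division of reads among copies, was 172790.0, 113400.0 and 153120.0 in BL/6J:C57 and 51827, 42509 and 47681 in NZB:C57. Mup20, also known as darcin, was at 19411, 15205 and 20146 against 595, 512 and 497 (log2 fold change -5.08 ± 0.18 SE, limma adjusted p = 7.40e-11), while Mup2 went the other way, from 83.8, 29 and 43 to 2287, 1713 and 1991 (log2 fold change 5.36 ± 0.28 SE, limma adjusted p = 5.15e-09). They share 51.3% and 78.2% of their words with other genes, so their own levels are uncertain.

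Of 29 female-biased genes, 8 were higher and 3 lower, with a median of 0.54, and 11 and 3 without NZB:C57 livers 2 and 3. EdgeR called 14 higher with a median of 1.31, and the limma median was 0.24 without NZB:C57 liver 1 and 0.35 without NZB:C57 liver 3. Cyp2a4, a steroid 15-alpha-hydroxylase, was at 0.617, 4.35 and 0.159 in BL/6J:C57 and 26.3, 21 and 24.2 in NZB:C57 (adjusted p = 2.18e-05, limma; 57.3% of words shared). The transporter gene Slc22a26 was at 0.176, 0.558 and 0.199 against 7.21, 5.82 and 10.7 (adjusted p = 5.10e-07, limma). Cyp3a41a, a female-biased P450 that shares 91.9% of its words, was at 0 in BL/6J:C57 and at 15.1, 40.6 and 326 in the NZB:C57 livers, with a wide spread. Cyp2b10 went down, from 70.3, 61.9 and 47.3 to 11, 7.57 and 8.73 (adjusted p = 2.48e-07, limma), as did Cyp39a1, an oxysterol 7-alpha-hydroxylase, from 13.7, 14.9 and 13.9 to 0.235, 0.582 and 0.494 (adjusted p = 8.89e-10, limma). On the growth hormone axis, 5 of 20 genes were higher and 1 lower, with 3 higher without BL/6J:C57 liver 2. The lower count was 4 without BL/6J:C57 liver 3 and 2 without BL/6J:C57 liver 1 or NZB:C57 liver 3. Igf1, the growth factor induced by growth hormone, stood at 759.7, 692 and 649 against 1303, 1362 and 1209.5 (log2 fold change 0.88 ± 0.10 SE, limma adjusted p = 2.57e-05), and its binding proteins Igfbp3 and Igfbp2 at log2 fold changes of 0.93 and -0.77 (adjusted p = 0.00667 and 0.00568, limma).

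Enzymes that modify drugs and steroids were counted by family. Among 56 cytochromes P450, 20 were higher and 18 lower, and the sign of their median changed with the settings, so no direction is given. Of 18 UDP-glucuronosyltransferases, which attach glucuronic acid, 8 were higher and 1 lower (median 0.33; 6 and 0 without livers 2 and 3). Ugt1a1, which conjugates bilirubin (chromosome 1, 88211959 to 88218997), was at 363, 296 and 355 in BL/6J:C57 and 4767, 4883 and 3518 in NZB:C57 (log2 fold change 3.69 ± 0.12 SE, limma adjusted p = 4.03e-11). Ugt1a1 belongs to a cluster whose members share their last exons and 60% of its words, so its own level is uncertain. Ugt2a3, with 8.1% of words shared, was at 183, 168 and 229 against 1023, 983 and 810.4 (log2 fold change 2.28 ± 0.14 SE, limma adjusted p = 4.17e-08). Carboxylesterases, which hydrolyse esters of drugs and lipids, were higher for 8 and lower for 1 of 13 (median 0.54; 8 and 1 without livers 2 and 3), with Ces1b at 89.1, 88.2 and 99.7 against 860.3, 897 and 718 (adjusted p = 1.25e-11, limma; 22% of words shared). The median of the carboxylesterases was 0.82 without NZB:C57 liver 3.

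Glutathione S-transferases, which couple electrophiles to glutathione, went in 1 direction: 10 of 21 were lower and 0 higher (median -0.47; 8 and 0 without livers 2 and 3). Mgst1, the microsomal transferase, whose words are not shared, was at 6526, 4947 and 5245 in BL/6J:C57 and 2623, 2674 and 2342 in NZB:C57 (log2 fold change -1.12 ± 0.13 SE, limma adjusted p = 1.65e-05). Gstp1 was at 3488, 2549.8 and 2365 against 858, 871 and 819.9 (adjusted p = 1.27e-06, limma), with 41.3% of words shared. Among 32 genes of glutathione and antioxidant metabolism, 15 were lower and 1 higher (median -0.32), and 5 and 0 without livers 2 and 3. Nfe2l2, which encodes the transcription factor NRF2 that drives many of them, was at 106, 93.2 and 101 against 66.4, 66.8 and 64 (log2 fold change -0.59 ± 0.10 SE, limma adjusted p = 0.000704). The groups did not overlap for Mgst1, Gstp1 or Nfe2l2. The same held for 3471 of the 3670 called genes, among which these were picked by small p.

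Bile acid genes differed in both directions, with 15 of 29 higher and 8 lower (median 0.54), 10 and 5 without NZB:C57 livers 2 and 3, and 5 lower without BL/6J:C57 liver 3 or without NZB:C57 liver 3, where the median was 0.35. Akr1d1, the steroid 5-beta-reductase (chromosome 6, 37530173 to 37568815), was at 136, 124 and 139 in BL/6J:C57 and 964, 921 and 738 in NZB:C57 (log2 fold change 2.70 ± 0.10 SE, limma adjusted p = 2.04e-10). Baat, which joins bile acids to amino acids (chromosome 4, 49489422 to 49506557), was at 306, 266 and 309 against 860.1, 816 and 834 (log2 fold change 1.51 ± 0.09 SE, limma adjusted p = 1.64e-08). Acox2, a peroxisomal oxidase of the bile acid side chain, was at 295, 312 and 334 against 113, 115 and 119 (log2 fold change -1.43 ± 0.08 SE, limma adjusted p = 1.00e-08). The 3 were picked by small p, so a gap between groups wider than the spread within them follows from the choice.

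In lipid metabolism, 11 of 31 genes of cholesterol synthesis and uptake were higher and 1 lower (median 0.25; 6 and 1 without livers 2 and 3), with 3 lower without BL/6J:C57 liver 1 and a median of 0.16 without NZB:C57 liver 1. Abcg5, a sterol exporter into bile, was at 56.6, 69.2 and 76.7 in BL/6J:C57 and 167, 178 and 165 in NZB:C57 (log2 fold change 1.33 ± 0.17 SE, limma adjusted p = 5.03e-05). The lower gene was Sc5d, a desaturase late in cholesterol synthesis, at 496, 587 and 699.6 against 348, 308 and 256. Of 21 apolipoprotein and lipoprotein genes, 9 were higher and 2 lower (median 0.16; 8 and 2 without livers 2 and 3), and the median was 0.34 without BL/6J:C57 liver 1 and 0.24 without BL/6J:C57 liver 2. Angptl8, an inhibitor of lipoprotein lipase, was at 47.7, 35.9 and 38.3 against 133, 192 and 185 (log2 fold change 2.03 ± 0.21 SE, limma adjusted p = 8.22e-06), and hepatic lipase, Lipc, at 176, 146 and 169 against 424, 452 and 342 (log2 fold change 1.30 ± 0.11 SE, limma adjusted p = 1.20e-06). Fatty acid oxidation genes and PPAR targets were lower for 16 and higher for 5 of 43 (median -0.17; 8 and 4 without livers 2 and 3), and the median was -0.07 without BL/6J:C57 liver 3 and -0.10 without NZB:C57 liver 3. The fatty acid transporter Cd36 was at 27, 30 and 31.6 against 14.5, 13.4 and 13.8 (log2 fold change -1.03 ± 0.12 SE, limma adjusted p = 2.13e-05). Fatty acid and triglyceride synthesis genes gave 8 higher and 7 lower of 32, with a median whose sign changed with the settings. The higher count was 4 without NZB:C57 liver 2, 4 without liver 3 and 5 without BL/6J:C57 liver 1.

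Among 36 genes of glycolysis and gluconeogenesis, 13 were lower and 1 higher (median -0.29; 9 and 1 without livers 2 and 3). Pdk1, a kinase that inhibits pyruvate dehydrogenase, was at 65, 60.4 and 77.7 in BL/6J:C57 and 20.1, 20.8 and 16.1 in NZB:C57 (log2 fold change -1.78 ± 0.11 SE, limma adjusted p = 5.78e-08). The higher gene was Gys2, liver glycogen synthase, at 105, 98.2 and 117 against 371, 381 and 351 (log2 fold change 1.78 ± 0.13 SE, limma adjusted p = 2.78e-07). Citric acid cycle genes were lower for 10 of 21 and higher for 0 (median -0.24), with 1 lower without livers 2 and 3, where the median was -0.19. Fh1, fumarate hydratase, was at 284, 290.4 and 254 against 173, 160.1 and 207 (log2 fold change -0.62 ± 0.10 SE, limma adjusted p = 0.000329). Urea cycle and amino acid breakdown genes gave 8 higher and 17 lower of 38 (median -0.22; 5 and 11 without livers 2 and 3). Agxt, which removes peroxisomal glyoxylate, was at 250.2, 279.6 and 229 against 878, 908 and 725 (log2 fold change 1.72 ± 0.12 SE, limma adjusted p = 1.36e-07), and Oat, ornithine aminotransferase, at 725, 732 and 885 against 235, 247 and 297 (log2 fold change -1.59 ± 0.13 SE, limma adjusted p = 7.54e-07). In the tryptophan and NAD pathway, 7 of 18 were higher and 4 lower, and 2 and 4 without livers 2 and 3. Ido2, an indoleamine dioxygenase (chromosome 8, 24531892 to 24576333), was at 97.5, 89.4 and 93.1 against 448, 445 and 480.4 (log2 fold change 2.28 ± 0.08 SE, limma adjusted p = 1.53e-10), and Kmo, kynurenine monooxygenase, at 548, 539.9 and 662 against 238, 236 and 266 (log2 fold change -1.23 ± 0.10 SE, limma adjusted p = 6.28e-07).

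Plasma protein genes were called in both directions. Of 47 complement and coagulation genes, 19 were higher and 9 lower (median 0.15; 12 and 7 without NZB:C57 livers 2 and 3), and the median was 0.03 without BL/6J:C57 liver 1, 0.23 without BL/6J:C57 liver 3 and 0.27 without NZB:C57 liver 1. The clotting factor genes F9, F10 and F11 were higher, with F9 at 171, 199.7 and 223 in BL/6J:C57 and 798, 825 and 916 in NZB:C57 (log2 fold change 2.10 ± 0.11 SE, limma adjusted p = 7.60e-09) and log2 fold changes of 1.86 for F10 and 1.70 for F11 (adjusted p = 2.26e-09 and 4.95e-08, limma). C6, a component of the membrane attack complex like C5, was lower, at 523, 519 and 610.3 against 125, 136 and 125 (log2 fold change -2.09 ± 0.15 SE, limma adjusted p = 1.62e-07). Among 16 Serpina genes, 8 were higher and 4 lower (4 and 5 without livers 2 and 3). Serpina1e, an alpha-1-antitrypsin copy, was at 13869, 15484 and 13641 against 855, 973 and 815 (adjusted p = 4.03e-11, limma), with 51.1% of words shared.

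Acute phase genes, which respond to inflammation, gave 5 higher and 8 lower of 34 (median -0.54), and 2 and 13 without livers 2 and 3. The lower count was 17 without NZB:C57 liver 3 and 5 without BL/6J:C57 liver 2, NZB:C57 liver 1 or NZB:C57 liver 2. The median was -0.05 without BL/6J:C57 liver 2, -0.29 without NZB:C57 liver 1, -0.82 without BL/6J:C57 liver 3, -1.03 without NZB:C57 liver 3 and -1.22 without NZB:C57 livers 2 and 3. Serum amyloid A gene Saa1 (45.3% of words shared) was at 1587, 7940.5 and 1276 in BL/6J:C57 and 19, 33.8 and 512 in NZB:C57 (adjusted p = 0.00187, limma), with BL/6J:C57 liver 2 and NZB:C57 liver 3 far above the other livers of their groups. Apcs, serum amyloid P, a major acute phase protein of mice, was at 128, 369.5 and 142 against 729, 849 and 1875 (adjusted p = 0.000257, limma). The same 2 livers were the highest of their groups for Apcs, while the groups differed the other way from Saa1.

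For iron and haem, 6 of 29 genes were higher and 9 lower, and 3 and 4 without livers 2 and 3. The hepcidin genes went opposite ways. Hamp, the hormone that limits iron export, was at 915, 859.5 and 749 in BL/6J:C57 and 63.7, 54.5 and 95 in NZB:C57 (log2 fold change -3.58 ± 0.27 SE, limma adjusted p = 3.35e-07), and its copy Hamp2 at 101, 93.2 and 80.3 against 979, 786 and 485 (log2 fold change 2.97 ± 0.23 SE, limma adjusted p = 4.52e-07). They share 41% and 27.4% of their words with other genes, so how reads were divided between copies limits both values. Tfr2, the transferrin receptor that takes part in iron sensing, was at 359, 385 and 349 against 1237, 1281 and 1432 (log2 fold change 1.85 ± 0.11 SE, limma adjusted p = 1.71e-08). Alas2, the erythroid enzyme that starts haem synthesis, was at 162, 176 and 199.8 against 17, 24.6 and 18.4 (log2 fold change -3.11 ± 0.16 SE, limma adjusted p = 7.14e-09).

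Antigen presentation genes were mostly lower. Of 33 genes of MHC and antigen presentation, 20 were lower and 5 higher (median -0.64; 13 and 3 without livers 2 and 3), and the higher count was 3 without NZB:C57 liver 2 and 3 without NZB:C57 liver 3. H2-K1, a classical class I molecule, was at 1747, 1622 and 1474 in BL/6J:C57 and 143, 141 and 151 in NZB:C57 (log2 fold change -3.46 ± 0.09 SE, limma adjusted p = 2.96e-12), and shares 18.8% of its words. NZB and C57BL/6 mice carry different MHC haplotypes. How NZB reads of these genes aligned to the C57BL/6J reference was not measured, which limits these values. Of the 33 genes, 15 share at least 10% of their words. In the Ifi200 cluster and neighbouring immune genes of chromosome 1, 12 of 20 were lower and 2 higher (median -1.07; 10 and 2 without livers 2 and 3). Mndal was at 11.5, 9.48 and 8.08 against 0.314, 0.582 and 0 (adjusted p = 1.18e-07, limma; 25% of words shared), opposite to Ifi202b of the same cluster. The inhibitory Fc receptor gene Fcgr2b was at 29.9, 20.2 and 20 against 32.7, 26.2 and 18.3, with overlapping groups. On NZB mtDNA Fcgr2b was called higher (log2 fold change 0.69, limma adjusted p = 0.0179), and the difference between backgrounds was not called. Other interferon-stimulated genes gave 4 higher and 12 lower of 49 (0 and 8 without livers 2 and 3), with 8 higher without BL/6J:C57 liver 3 and 2 without BL/6J:C57 liver 1. Oasl1 was at 24.9, 21.9 and 33 against 10.4, 12.6 and 13.7 (adjusted p = 0.000943, limma).

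Nuclear genes of the respiratory chain, whose products assemble with subunits encoded by mtDNA, were called lower more often than higher. Of 37 complex I genes, 33 were lower and 0 higher, with a median of -0.50 and the lowest, Ndufs5 of the copy pair above, at -5.74. Ndufa1, chosen by its small p, was at 122, 103 and 86.3 in BL/6J:C57 and 64.1, 60.7 and 55.6 in NZB:C57 (log2 fold change -0.77 ± 0.12 SE, limma adjusted p = 0.00029). Without NZB:C57 livers 2 and 3, 5 were lower with a median of -0.45. Leaving out 1 library gave 23 to 35 lower. Complexes II and III gave 7 lower and 0 higher of 14 (median -0.36), complex IV 9 and 2 of 14 (median -0.49), and ATP synthase 8 and 1 of 15 (median -0.38). Without livers 2 and 3 their lower counts were 0, 0 and 0, with medians of -0.28, -0.42 and -0.30. The genes of complex IV called higher included Cox6b2, at a log2 fold change of 3.15. The count for complexes II and III was 3 without BL/6J:C57 liver 1 and 4 without NZB:C57 liver 3. Cox4i1 was at 528, 432 and 384 against 309, 300.4 and 289.8 (log2 fold change -0.57 ± 0.11 SE, limma adjusted p = 0.0022), and Atpif1, the ATP synthase inhibitor, was the gene called higher there, at 16.5, 11.9 and 11.7 against 26.3, 22.9 and 19.1 (adjusted p = 0.00196, limma). BL/6J:C57 liver 1 was the highest of the 6 libraries for 69 of 80 genes of these complexes, against 3410 of the 13159 genes tested, and its part in the counts is given by the fits without it.

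Genes that maintain and express mtDNA gave 6 lower and 2 higher of 42, or 19.0% called against 27.9% over all genes, with 3 lower without NZB:C57 liver 3. Those of mitochondrial protein quality gave 6 and 1 of 24. Their lower count was 3 without NZB:C57 liver 1 and 3 without liver 3. Phb, prohibitin, was at 142, 125 and 127 in BL/6J:C57 and 58.4, 60 and 57.1 in NZB:C57 (log2 fold change -1.15 ± 0.08 SE, limma adjusted p = 2.27e-07; 24.9% of words shared). Nnt, the mitochondrial transhydrogenase whose gene is disrupted in some C57BL/6 substrains, was at 142, 143 and 152 against 156, 159.5 and 161 and did not pass (adjusted p = 0.221, limma). Cox7a2l, the supercomplex assembly factor with a known strain variant, was at 113, 110.2 and 122 against 103, 99.9 and 97.1 and did not pass (adjusted p = 0.0664, limma). On NZB mtDNA both were called, at log2 fold changes of 0.31 for Nnt and -0.29 for Cox7a2l (adjusted p = 0.00572 and 0.0115, limma). The difference between backgrounds was called for neither. Nnt and Cox7a2l share 31.7% and 10.4% of their words, so their own levels are uncertain. Cytosolic ribosomal protein genes, 60 of 73 of which share at least 10% of their words, gave 13 lower and 2 higher, and 30 lower without BL/6J:C57 liver 3. That count was 8 without BL/6J:C57 liver 1, without BL/6J:C57 liver 2 or without NZB:C57 liver 2.

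Of 23 chaperones of the endoplasmic reticulum, 8 were higher and 1 lower, with a median of 0.47, or 0.23 without NZB:C57 livers 2 and 3. Pdia4, a disulfide isomerase, was at 316, 390.0 and 285 in BL/6J:C57 and 465, 579 and 729 in NZB:C57 (log2 fold change 0.83 ± 0.20 SE, limma adjusted p = 0.00732). Immediate early and heat shock genes were lower for 8 of 19 and higher for 0 (median -0.64, or -0.96 without BL/6J:C57 liver 3), with 4 to 12 lower when 1 library was left out. Without BL/6J:C57 liver 1 the count was 4, as it was without NZB:C57 liver 1, while without BL/6J:C57 liver 2 and without NZB:C57 liver 2 it was 5. Hspa8, the constitutive HSC70 chaperone, was at 2313, 2009 and 954 against 355, 412 and 350.4 (adjusted p = 1.73e-05, limma; 47.4% of words shared), and the early response gene Fos at 21.1, 6.86 and 2.43 against 0.941, 0.582 and 2.14 (adjusted p = 0.0115, limma). Clock genes were called higher for 5 and lower for 3 of 22, with 1 higher without BL/6J:C57 liver 2, 1 without NZB:C57 liver 1, and 2 without BL/6J:C57 liver 1 or NZB:C57 liver 2. Their lower count was 1 without BL/6J:C57 liver 1 or 2 and 5 without BL/6J:C57 liver 3. Per3 was at 2.2, 4.69 and 6.41 against 34.3, 21.7 and 17.9, and the BL/6J:C57 livers differed among themselves for Nr1d2, at 25.5, 41.6 and 80.5. The times at which the livers were taken are not given in the sources used here.

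Most cell cycle genes were higher. Of 39 tested, 27 were higher and 0 lower, with a median of 0.74, and 17 and 0 without NZB:C57 livers 2 and 3. The median was 1.25 with edgeR, and 1 gene was called lower without BL/6J:C57 liver 3. Ccna2, cyclin A2, was at 1.5, 1.28 and 1.27 in BL/6J:C57 and 5.88, 8.15 and 4.45 in NZB:C57 (log2 fold change 1.57 ± 0.21 SE, limma adjusted p = 8.33e-05), and Kif20a, a kinesin of cell division, at 0.617, 1.12 and 2.03 against 5.72, 9.12 and 6.75 (log2 fold change 1.89 ± 0.22 SE, limma adjusted p = 2.64e-05). Levels were low in both groups, and the groups did not overlap for either gene, as for 3471 of the 3670 called genes. Of 31 extracellular matrix genes, 14 were higher and 0 lower (median 0.54; 10 and 0 without livers 2 and 3), with 2 lower and a median of 0.34 without BL/6J:C57 liver 3. The basement membrane collagen gene Col4a2 was at 32.8, 32.7 and 25.9 against 74.4, 74.1 and 66 (log2 fold change 1.21 ± 0.11 SE, limma adjusted p = 1.69e-06), and the laminin gene Lamc1 at 13.7, 13.9 and 14.5 against 26.8, 27.2 and 25.4 (log2 fold change 0.86 ± 0.09 SE, limma adjusted p = 1.16e-05). Hepatocyte transcription factor genes gave 9 higher and 6 lower of 36, with a median whose sign changed with the settings and 10 lower without BL/6J:C57 liver 3. Onecut2 was at 90.2, 99.9 and 99.5 against 213, 194 and 263 (log2 fold change 1.19 ± 0.11 SE, limma adjusted p = 2.98e-06), and the xenobiotic receptor gene Nr1i2 at 96.6, 89 and 78.1 against 40.8, 58.6 and 44.3 (log2 fold change -0.87 ± 0.13 SE, limma adjusted p = 0.000236).

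**Figure D4:**
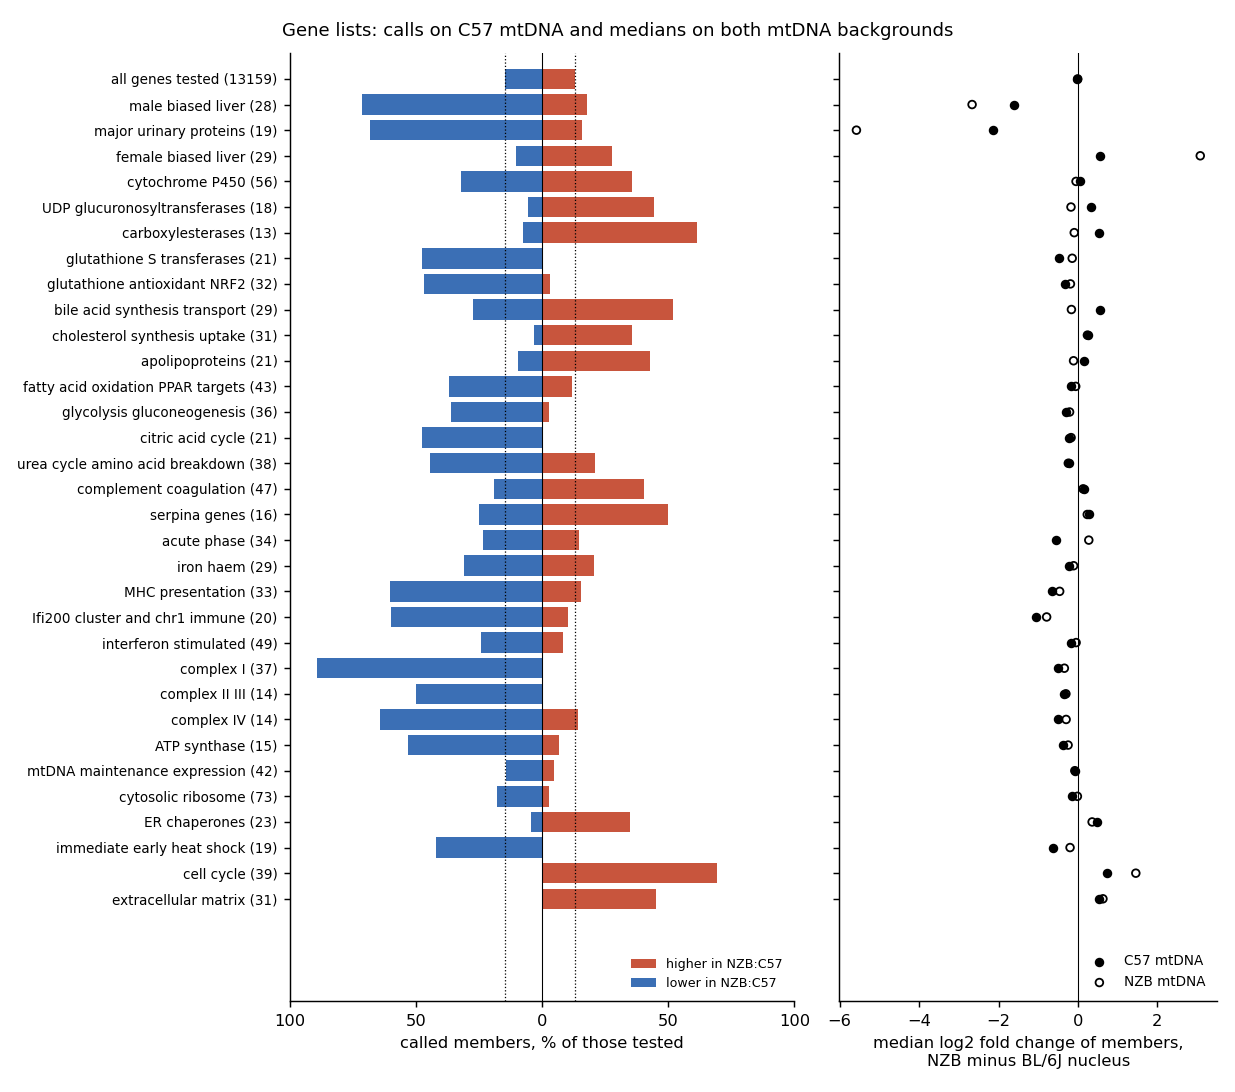
Left, called members of each pathway list shown (marker lists are not drawn) as a percentage of those tested (number in brackets), higher to the right and lower to the left, with dotted lines at 13.1% and 14.8% for all genes tested; right, median log2 fold change of the members on C57 mtDNA (filled) and NZB mtDNA (open). Among the lists drawn, complex I reaches furthest to the left (33 of 37) and the cell cycle list furthest to the right (27 of 39).

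The same nuclear contrast on NZB mtDNA called 3271 of 13159 genes (24.9%). Of the 3670 genes called on C57 mtDNA, 2134 were called in the same direction there (58.1% of the former and 65.2% of the latter), and 53 in the opposite direction. Across genes, which are not independent replicates, the log2 fold changes had a Pearson r of 0.82 over 13159 genes, with no library shared. Both contrasts held swaps between genes and copies and heart transcripts in NZB livers, with 12 of 12 heart muscle markers called higher in each. The part of these in the r and in the shared calls was not tested. Wfdc21, Akr1c18, Cyp2c39 and H2-K1 had log2 fold changes of -8.22, 5.81, 7.93 and -3.39 on NZB mtDNA (adjusted p = 7.23e-09, 2.95e-12, 1.76e-14 and 3.73e-12, limma). Cell cycle genes were higher for 32 of 39 on NZB mtDNA (median 1.46), and complex I genes lower for 17 of 37 (median -0.34).

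The difference between the mtDNA backgrounds was called for 328 genes (2.49%), with 240 more positive and 88 more negative on C57 mtDNA, a contrast of all 4 groups that includes the difference between a conplastic and a parental line on each side. All 53 genes called in opposite directions were among them. Ugt1a1 was at 336, 345 and 348 in BL/6J:NZB and 297, 312 and 279 in NZB:NZB livers, so the NZB:C57 livers stood above the other 3 groups (difference of log2 fold changes 3.90, SE 0.17, adjusted p = 2.36e-08, limma). Pglyrp2, a peptidoglycan amidase secreted by the liver (chromosome 17, 32412459 to 32424167), was at 75.1, 91.9 and 77.1 against 516, 532 and 571 on C57 mtDNA and at 56.6, 76.1 and 68.4 against 54.6, 57.2 and 56 on NZB mtDNA (difference 2.97, SE 0.16, adjusted p = 1.58e-07, limma). Ido2 was at 106, 110.5 and 97.7 against 77.3, 72.2 and 84.2 on NZB mtDNA (difference 2.71, SE 0.12, adjusted p = 2.36e-08, limma), Baat at 295, 279.7 and 252 against 173, 171 and 170.1 (difference 2.19, SE 0.12, adjusted p = 2.08e-07, limma), and Serpina6 at 72.9, 72.2 and 89.2 against 257, 227 and 235 (difference 2.44, SE 0.13, adjusted p = 1.78e-07, limma). Ugt1a1, Pglyrp2, Ido2, Baat and Serpina6 were picked by their small p in this test. That all 3 NZB:C57 livers lay above the other 9 for each is no further evidence.

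Many sex-biased genes differed between backgrounds. Female-biased genes had a median of 0.54 on C57 and 3.08 on NZB mtDNA, and 18 of 29 were called more negative on C57 mtDNA and 0 more positive. Male-biased genes had medians of -1.62 and -2.67, with 17 of 28 called more positive on C57 mtDNA and 0 more negative. Mup20, for instance, was at 34.9, 28.3 and 46.3 in NZB:NZB livers, below the 595, 512 and 497 of NZB:C57 (difference 3.55, SE 0.25, adjusted p = 1.91e-06, limma), and Cyp2a4 at 202, 238 and 139 (difference -3.88, SE 0.57, adjusted p = 0.00106, limma). Of the 28 male-biased genes, 19 were called lower on both backgrounds, and of the 29 female-biased genes 8 were called higher on both. At least 10% of words are shared by 18 of these male-biased and 14 of these female-biased genes, Mup20 and Cyp2a4 among them. The levels of those genes are uncertain. Y-linked genes were present in the NZB:NZB livers too, with Uty at 24.9, 18.8 and 22.5.

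**Figure D5:**
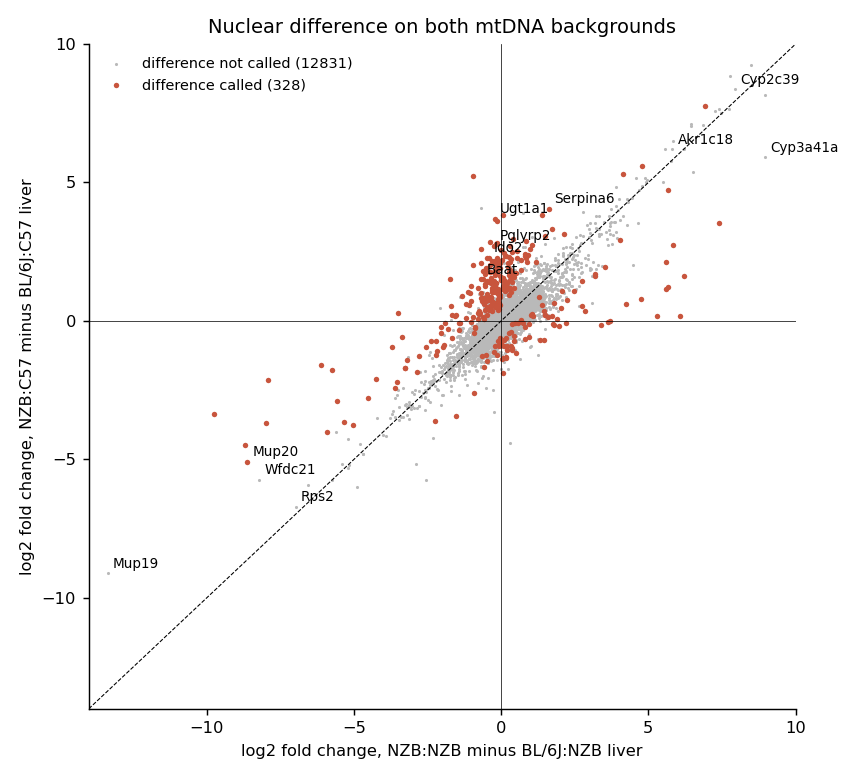
Log2 fold change of the NZB against the BL/6J nucleus on C57 mtDNA (vertical) and NZB mtDNA (horizontal), 1 point per gene in the 12 livers, with the line of equality dashed; red points are the 328 genes whose difference was called by limma. Ugt1a1, Pglyrp2, Ido2 and Baat lie high near 0 on the horizontal axis.

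Genes were also placed by how much higher they were in liver than in heart, as log2 of the ratio of (value + 1) in BL/6J:NZB libraries, which are not in the contrast on C57 mtDNA but are in the one on NZB mtDNA and in the difference. The share called on C57 mtDNA was 29.6% of 216 genes with a ratio of -4 or below, 19.0% of 763 from -4 to -2 and 22.9% of 4801 from -2 to 0. It was 26.7% of 5789 from 0 to 2, 43.2% of 880 from 2 to 4 and 53.1% of 326 from 4 to 6. At the top it was 71.4% of 206 from 6 to 8 and 65.7% of 178 above 8. The difference between backgrounds was called for 0.93%, 0.39%, 0.5%, 1.07%, 5.0%, 15.95%, 38.35% and 34.83% of these, in the same order. At -4 or below, 49 genes were called higher and 15 lower on C57 mtDNA. Their median log2 fold change was 0.17, or 0.04 without NZB:C57 livers 2 and 3. Genes this high in heart could pass the filter through the NZB livers that held heart transcripts, so their share called is no independent evidence. Above 8, 59 of the 62 called differences were more positive on C57 mtDNA, with median log2 fold changes of 0.19 on C57 and -0.21 on NZB mtDNA. Genes were placed here by high BL/6J:NZB liver values, which are subtracted on NZB mtDNA and added in the difference. The choice thus favours this direction, and by how much was not tested. The median of 0.19 was 0.20 without NZB:C57 livers 2 and 3 and 0.21 with edgeR. Of 29 bile acid genes, 9 had a called difference more positive and 1 more negative on C57 mtDNA (medians 0.54 and -0.17). The counts were 7 and 0 of 18 UDP-glucuronosyltransferases, and 9 and 3 of 47 complement and coagulation genes. Over all 13159 genes tested they were 240 and 88 (2.49%). Whether these lists differ from other genes as high in liver over heart was not tested.

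In heart, the same genotypes on C57 mtDNA differed for 4865 of 13803 genes (35.2%), and the difference between liver and heart was called for 3859 of 14968 genes (25.8%). In these hearts 12 of 12 tested heart muscle markers were called higher in NZB:C57, with a median log2 fold change of 2.63. Summed values were 1058758, 1068799 and 1048698 in NZB:C57 and 726047, 688021 and 697029 in BL/6J:C57 hearts. The part of this difference between the hearts in the counts was not tested. Cyp2c39 was at 0 in all 6 hearts (difference of log2 fold changes 8.37, SE 0.18, adjusted p = 5.87e-19, limma), as was Serpina6 (difference 4.06, SE 0.13, adjusted p = 7.68e-16, limma). Akr1c18 was at 0 in BL/6J:C57 hearts and at 0.0849, 0 and 0 in NZB:C57 hearts (difference 6.15, SE 0.19, adjusted p = 3.69e-16, limma). Myom2 was at 832, 719 and 733 in BL/6J:C57 hearts and 935, 926 and 851 in NZB:C57 hearts, against the 26.2, 33 and 29 in NZB:C57 livers (difference 4.58, SE 0.16, adjusted p = 2.49e-15, limma). The swaps between genes and copies stood in heart as well, with Rps2 at 394, 385 and 362 in BL/6J:C57 and 2.55, 1.82 and 2.65 in NZB:C57 hearts. By chromosome, the share of tested genes called in liver ran from 20.9% on X to 32.5% on chromosome 15, among chromosomes with over 300 tested genes, so called genes were spread over the genome.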

How the data were processed

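Liver RNA of 4 genotypes, 3 pools each, was sequenced after selection of polyadenylated RNA on an Illumina Genome Analyzer IIx, per the labels' protocols, with RNA integrity of at least 7.9. The replicates are pools of different animals. The deposited signal, in 24 library columns over 15323 genes, was normalised by the authors per the file headers. Bowtie2 2.0.6, RSEM 1.2.3, cutadapt 1.2.1, edgeR and the build GRCm38 are named in the submitters' processing notes without their roles. That build is the C57BL/6J genome, and how reads of the NZB genome aligned to it was not measured here. All values were whole multiples of 1 constant per column (100% within 0.01 reads), which gave whole reads: 7294525 to 34974268 per liver library. Counting intervals and floors cover counting error only.

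With limma 3.58.1 in R 4.3.3, log2(value + 1) was modelled with a mean trend over the 12 livers, and over all 24 libraries for liver against heart, taking tissues of a genotype as independent. Genes reaching a value of 1 in 3 or more libraries were tested, with Benjamini-Hochberg adjustment over all of them and a threshold of 0.05. The pseudocount makes fold changes of low genes too small. Symbols, positions and transcripts came from GENCODE vM21, and 15116 genes (98.65%) had a symbol. A gene's share of 31-base words found in another gene's transcripts measured shared sequence, and at 10% or more its own level is uncertain. No source used here gives the strandedness. The fits were run on simulated counts with known changes. The simulation had neither heart transcripts in some livers nor reads divided between copies, so it does not bear on these limits. The 53 gene lists (1275 names, 1196 in the table), the comparisons and the genes named were chosen with earlier results of these data known, so no list is independent evidence.

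The genes named take the 12 fold changes furthest from 0 in each direction among called, non-overlapping genes with a mean of at least 5 in the higher group, leaving out predicted models, then up to 4 called members per list by smallest p. They also include the 10 genes per direction with the largest differences shared by both mtDNA backgrounds, the 6 smallest p of each test of a difference, and the strain and sex checks. Some are not printed, and results on a few genes are not reported here. Genes of copy pairs outside this rule were chosen after their values were seen. The alternatives were pseudocounts, filters on low values, scaling to library totals, edgeR 4.0.16 and DESeq2 1.42.0 on the recovered reads, a replicate block, only the 6 libraries, and leaving out libraries.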

Additional observations from a re-analysis of the deposited data

Results flagged for a closer look

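The nuclear difference in liver was unequal between the C57 and NZB mtDNA backgrounds for 328 genes by the test of the difference, in which mtDNA cannot be told apart from the contrast of conplastic and parental lines. Ido2 differed by 2.71 (log2, C57 minus NZB mtDNA), Ugt1a1 by 3.90, Pglyrp2 by 2.97, Serpina6 by 2.44 and Baat by 2.19. Cd1d2 was at 0 in BL/6J:C57 and at 16.6, 18.5 and 17.6 in NZB:NZB livers, below the 44.3, 41.5 and 30.1 in NZB:C57, a difference of 1.15 (adjusted p = 0.00754, limma), and Mup20 differed by 3.55.

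Between liver and heart on C57 mtDNA the nuclear difference was unequal for 3859 genes. In liver it was larger by 8.37 for Cyp2c39, 6.15 for Akr1c18, 4.06 for Serpina6 and 4.58 for Myom2. Cyp2c39 and Serpina6 were at 0 in the 6 hearts and Akr1c18 near 0, so the differences of Cyp2c39, Serpina6 and Akr1c18 restate the liver contrast. It was more negative in liver by -3.73 for Trim63, which encodes a muscle ubiquitin ligase, and by -3.65 for Asb10. Trim63 was at 92.2, 91.5 and 88.9 in BL/6J:C57 and 1199, 1154 and 1309.8 in NZB:C57 hearts and at 0 in the 6 livers. Asb10 was at 56.2, 47.4 and 52.1 and 644, 674 and 585 in these hearts. In livers Asb10 was at 0, 0.0558 and 0.0796 in BL/6J:C57 and at 0 in NZB:C57. The differences of Trim63 and Asb10 thus restate the heart contrast. Trim63 and Asb10 were higher in all 3 NZB:C57 hearts, where 12 of 12 tested heart muscle markers were also called higher. Whether Trim63 and Asb10 differ apart from these markers was not tested.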

How the results depend on the processing

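The count of 3670 genes was 2392 in a fit of only the 6 libraries compared (1141 higher, 1251 lower) and 1585 without NZB:C57 livers 2 and 3. It ran from 2729 to 4457 when 1 library was left out, with the highest count without BL/6J:C57 liver 3. EdgeR called 3560, DESeq2 3488, and scaling to library totals gave 3679 (1582 higher, 2097 lower). Same-numbered pools of the groups did not deviate together (r of 0.052, -0.176 and -0.14 over genes), and a replicate block gave 3558 calls. On NZB mtDNA the count was 2380 to 2783 without 1 library. The difference between mtDNA backgrounds was called for 259 to 482 genes without 1 library, 300 with edgeR, 391 with DESeq2, 309 with the block, and 365 with library totals (202 more positive, 163 more negative, median -0.16), against 240 and 88. The difference between liver and heart was called for 8650 genes with library totals (7206 more positive, 1444 more negative, median 0.44), 1835 with edgeR and 1917 with DESeq2, and for 3197 to 4680 without 1 library. The cause was not tested. Of 205 genes named, 159 kept their direction and side of the threshold under all alternatives. Without NZB:C57 livers 2 and 3, the log2 fold changes of Myh6 and Actc1 turned to -0.045 each and that of Uty to -0.010. Leaving out 1 library gave -0.066 to 0.337 for Fcgr2b and -0.025 to 0.083 for Uty. Groups of 3 pools, the lower depth of NZB:C57 livers 2 and 3 and near-identical copies limit single-gene values.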
